A study of Mus musculus with 8 samples.

Results

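Water-soluble vitamins reach the body through a small set of carriers, receptors and enzymes of the intestinal epithelium, and 10 genes of this kind were followed in lactating mice with and without RANK in that epithelium. They were Slc46a1, Cubn, Amn, Slc23a1, Slc19a2, Slc19a3, Slc5a6, Slc52a3, Tcn2 and Btd, chosen by name from the 54532 genes of the deposited count table. RANK, the product of Tnfrsf11a, is a receptor of the TNF receptor family that signals when it binds RANKL. Intestinal epithelial cells were taken at lactation day 5 from 4 WT and 4 Rank-knockout mice, with 1 library for each mouse. Per the study's methods the mice were on a C57BL/6J background, the Rank-knockout dams had lost a floxed Rank allele through a Cre driven by the Villin promoter, and the dams had been mated to WT C57BL/6J males. All 8 dams had therefore gone through pregnancy and were nursing. Whether the WT dams carried the floxed allele or Cre, the ages of these 8 dams and the segment of intestine used for RNA are not given in the sources used here. The Villin promoter is active throughout the intestinal epithelium, so the deletion is not limited to absorptive cells. Because no sample came from a virgin or pregnant mouse, the data compare genotypes within lactation and hold no measure of lactation itself.

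Vitamins of this class are charged or polar and do not cross the apical membrane freely. Folate enters through the proton-coupled transporter encoded by Slc46a1, ascorbate through the sodium-coupled transporter Slc23a1, thiamine through Slc19a2 and Slc19a3, riboflavin through Slc52a3, and biotin and pantothenate through the shared sodium-coupled transporter Slc5a6. Cobalamin (vitamin B12) is taken up bound to intrinsic factor by a receptor made of cubilin (Cubn) and its membrane anchor amnionless (Amn), and leaves towards the blood bound to transcobalamin (Tcn2). Biotinidase (Btd) frees biotin from the form in which it is bound in dietary protein.

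The comparison bears on how expression of vitamin uptake genes depends on RANK at this stage of lactation. Of the 10 genes, 9 had enough counts to be tested, 7 were lower in Rank-knockout and 0 were higher (also 0 in DESeq2 and 0 at an unadjusted p under 0.05), while Slc19a2 and Slc52a3 did not pass the threshold and Slc19a3 fell below the filter on low counts. For comparison, 14.6% of the 9855 tested genes were called lower and 15.8% higher, at a Benjamini-Hochberg adjusted p under 0.05 in edgeR's quasi-likelihood test. The log2 fold changes of the 7, Rank-knockout minus WT, ran from -1.75 for Cubn to -0.61 for Btd. In each of the 7 every WT library lay above every Rank-knockout library, a separation seen for 14.3% of all tested genes (14.4% had every Rank-knockout library above). The median log2 fold change of the 9 tested genes was -1.03, against 0.02 for all tested genes. Summed over the 10 genes, the level was 1550 ± 111 CPM in WT, against 725 ± 94.2 CPM in Rank-knockout (SD, n = 4 each), where CPM is counts in 1000000 of the TMM-scaled library. Tcn2, Amn and Slc46a1, at means of 628, 307 and 288 CPM in WT, made up most of this sum. In RNA from mixed epithelial cells, fewer cells of a type and less RNA per cell cannot be told apart.

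**Figure D1:**
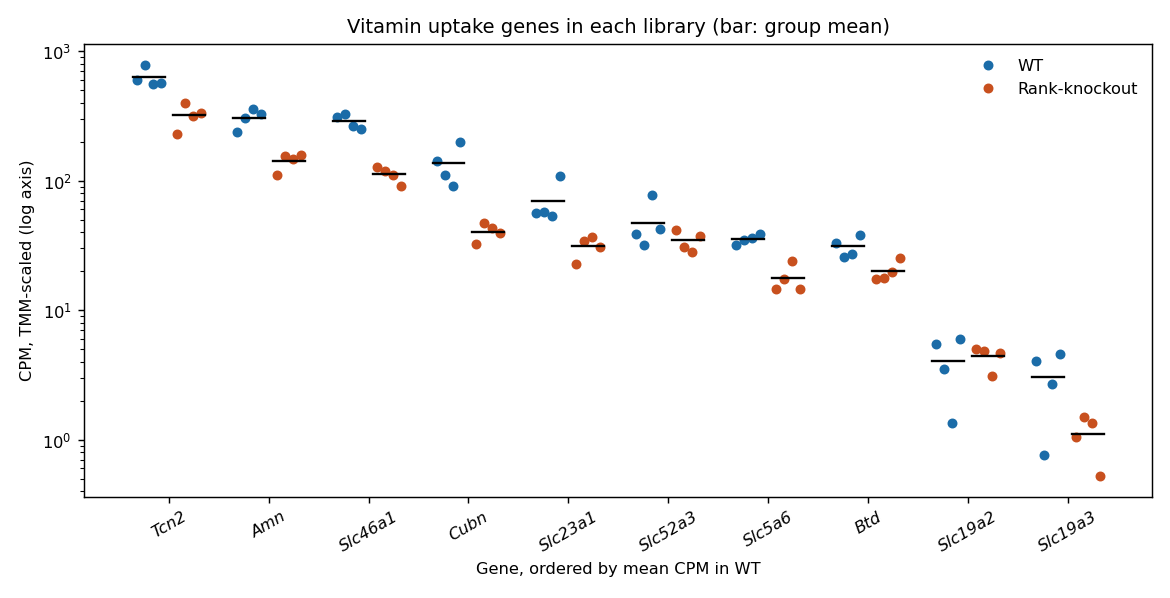
TMM-scaled CPM (log axis) of the 10 vitamin uptake genes in each of the 4 WT (blue) and 4 Rank-knockout (orange) libraries, with bars at the group means. The groups do not overlap for Tcn2, Amn, Slc46a1, Cubn, Slc23a1, Slc5a6 and Btd, and overlap for Slc52a3, Slc19a2 and Slc19a3.

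Library totals ran from 1530781 to 1616024 counts in 3 WT libraries, reached 4335653 in the other, and ran from 2103716 to 4321154 in Rank-knockout. Tnfrsf11a itself was at 76.8, 49.3, 41.3 and 73.3 CPM in WT, against 27.0, 41.7, 35.2 and 46.8 CPM in Rank-knockout, ranges that overlap (log2 fold change -0.67, SE 0.22, adjusted p = 0.0322). The call did not hold when WT replicate 1 (adjusted p = 0.0978) or 4 (0.0854), or Rank-knockout replicate 1 (0.104) or 3 (0.0746), was left out, nor with library totals in place of TMM (-0.48, adjusted p = 0.113) or with totals that leave out the 50 most abundant genes (-0.54, adjusted p = 0.0765). Tags from the 3′ end may lie outside the deleted part of the gene, which is not given in the sources used here, so this level does not check the deletion. The epithelial label was matched by its markers: Cdh1, Epcam and Cdh17, the 3 of 8 pan-epithelial genes with the highest mean CPM over all 8 libraries, were at 4562 ± 611, 2029 ± 208 and 1295 ± 222 CPM in WT (SD, n = 4). In Rank-knockout they were at 4484 ± 554, 1484 ± 109 and 947 ± 159 CPM (SD, n = 4). Epcam and Cdh17 were called lower (log2 fold change -0.45 for each, adjusted p = 0.0241 and 0.0498), and Cdh1 was not called (adjusted p = 0.921). The 10 endothelial and stromal genes summed to between 6.69 and 20.5 CPM in any library, with Cdh5 at 0 counts in all. Immune genes, led by Gzma, Ptprc and Cd3e, summed to between 186 and 279 CPM in WT and between 119.5 and 197 CPM in Rank-knockout. Adjusted p for the 5 tested ran from 0.0718 to 0.978. Jchain, a plasma cell gene below the count filter, was at 5.30 ± 1.84 CPM in WT, against 1.97 ± 1.05 CPM in Rank-knockout with groups apart, and the fit of unfiltered genes put it at -1.38 on the log2 scale (adjusted p = 0.0191). Cd79a and Adgre1 had 0 counts in every library.

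Folate uptake. Slc46a1 (ENSMUSG00000020829, GRCm38 chromosome 11, 78465697 to 78472059, plus strand) encodes the transporter that carries folate across the apical membrane at the acid surface of the proximal small intestine. It stood at 308, 330.1, 265 and 249 CPM in WT replicates 1 to 4 and at 127, 119, 111 and 90.5 CPM in Rank-knockout replicates 1 to 4. The lowest WT library was thus well above the highest Rank-knockout library. Group means were 288 ± 37.5 and 112 ± 15.6 CPM (SD, n = 4 each), and the log2 fold change was -1.37 (SE 0.15, adjusted p = 9.88e-05), which leaves 38.8% of the WT level. Slc19a1, the reduced folate carrier, is a second folate transporter with a neutral pH optimum. It was at 83.0 ± 10.6 CPM in WT, against 62.6 ± 7.28 CPM in Rank-knockout (log2 fold change -0.41, SE 0.15, adjusted p = 0.0495), and its call was lost when WT replicate 1, 2 or 3 or any Rank-knockout library was left out (adjusted p from 0.0503 to 0.115), and under 4 other settings of scaling or filtering (0.0512 to 0.288). The log2 ratio of Slc46a1 to Slc19a1 changed by -0.96 with groups apart, which did not pass after adjustment (exact two-sided permutation p = 0.0286, adjusted p = 0.2 over 7 pairs). That is the smallest p the design allows, so a single separated pair could not pass.

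Cobalamin uptake. Cubn (ENSMUSG00000026726, chromosome 2, 13276338 to 13491813, minus strand) encodes cubilin, the large extracellular protein that binds intrinsic factor with its cobalamin. Its levels were 142, 112, 91.5 and 198 CPM in WT, against 32.4, 46.9, 43.3 and 39.2 CPM in Rank-knockout. WT libraries spread more widely than Rank-knockout libraries, with coefficients of variation of 34.2% and 15.3%, but did not reach down to them. The means were 136 ± 46.4 and 40.5 ± 6.20 CPM, and the log2 fold change of -1.75 (SE 0.22, adjusted p = 0.000149) was the 20th most negative of the 9855 tested genes. Amn (ENSMUSG00000021278, chromosome 12, 111271095 to 111276426, plus strand) encodes amnionless, which holds cubilin in the membrane. It was at 237, 306, 358 and 328 CPM in WT, against 111, 155, 146 and 159 CPM in Rank-knockout. Means were 307 ± 51.5 and 143 ± 22.0 CPM, with a log2 fold change of -1.11 (SE 0.16, adjusted p = 0.000284).

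Both subunits of the receptor were therefore lower, Cubn to 29.7% and Amn to 46.4% of WT. Whether Cubn fell more than Amn was tested on the ratio within each library. The log2 ratio of Cubn to Amn was -0.74, -1.45, -1.96 and -0.72 in WT and -1.75, -1.71, -1.74 and -2.00 in Rank-knockout. WT replicate 3 lay among the Rank-knockout libraries, and the difference of -0.58 did not pass (exact two-sided permutation p = 0.114, adjusted p = 0.2 over 7 pairs). Lrp2, megalin, which works with cubilin in the kidney, had 0 counts in all 8 libraries, which allows up to 0.139 CPM over their combined total. Gif, intrinsic factor, a product of the stomach in which 4 counts were found in all, is named here after its values were seen.

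Tcn2 (ENSMUSG00000020432, chromosome 11, 3917192 to 3932159, minus strand), the plasma carrier that receives cobalamin after absorption, was the most abundant of the 10 genes. It was at 597, 789, 558 and 569 CPM in WT, against 228, 401, 318 and 336 CPM in Rank-knockout. Even the highest Rank-knockout library was below the lowest WT library. The means of 628 ± 109 and 321 ± 71.3 CPM gave a log2 fold change of -0.97 (SE 0.18, adjusted p = 0.0011). The ratio of Cubn to Tcn2, which sets the uptake receptor against the export carrier, changed by -0.70 on the log2 scale (exact two-sided permutation p = 0.0571, adjusted p = 0.2), with overlapping groups.

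The upstream sequences of Slc46a1 and of the receptor partners Cubn and Amn are shown because these 3 genes had the smallest adjusted p of the 9 tested and because Cubn and Amn make up a single receptor. They come from the 250 bases before the RefSeq start (GRCm38.p6), without the last 4 bases for Slc46a1 and the last base for Amn, which lie within the GENCODE gene. They read 5′ to 3′ on the strand of the gene, from chr11:78465451-78465696 on the plus strand, chr2:13491877-13492126 on the minus strand and chr12:111270846-111271094 on the plus strand. Capitals mark matches to any of 6 motif cores searched on both strands.
Slc46a1: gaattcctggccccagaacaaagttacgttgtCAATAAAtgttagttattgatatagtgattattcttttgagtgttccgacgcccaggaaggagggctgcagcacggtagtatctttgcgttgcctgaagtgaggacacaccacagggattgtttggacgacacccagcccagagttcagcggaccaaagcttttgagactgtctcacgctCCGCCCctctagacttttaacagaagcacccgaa
Cubn: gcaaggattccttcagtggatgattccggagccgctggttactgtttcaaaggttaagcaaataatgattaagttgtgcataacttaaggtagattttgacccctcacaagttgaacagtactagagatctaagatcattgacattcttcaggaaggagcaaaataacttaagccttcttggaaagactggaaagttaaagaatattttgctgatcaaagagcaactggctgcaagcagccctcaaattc
Amn: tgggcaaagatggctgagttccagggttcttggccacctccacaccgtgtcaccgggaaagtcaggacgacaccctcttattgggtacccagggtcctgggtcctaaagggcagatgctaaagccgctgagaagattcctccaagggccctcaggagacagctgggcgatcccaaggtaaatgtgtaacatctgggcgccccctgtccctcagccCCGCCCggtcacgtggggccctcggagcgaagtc

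The core searched for HNF4 was CAAAGTC, and that for the caudal factors CDX was TTTATNG. For the GATA factors of the intestine it was AGATAA, and for the SP and KLF families it was GGGCGG. The HNF1 site was searched as GTTAAT, and the NRF1 core was searched as GCATGCG. No match overlaps another in these runs. Positions are counted back from the RefSeq start. The 250 bases upstream of Slc46a1 held a CDX core beginning 218 bases before that start and an SP/KLF core beginning 38 bases before it, both on the opposite strand. Those of Amn held an SP/KLF core beginning 35 bases before it, also on the opposite strand, and those of Cubn held 0 of the 6. The CDX core occurs in 9.81% and the SP/KLF core in 32.7% of the 32851 upstream windows of 250 bases in the table, so these matches are common. Base composition also differed, with 39.6% G and C upstream of Cubn, 49.6% for Slc46a1 and 61.2% for Amn. Of the 10 genes, 7 had an upstream sequence in the table, and Slc19a2, Slc5a6 and Btd also held the SP/KLF core while Slc19a3 held none of the 6. Every window of Slc5a6 lay wholly within its GENCODE gene, so its matches are upstream of a RefSeq start only. The last 29 or 36 bases of the windows of Btd also lay within its gene. A match is a stretch of letters and no measure of factor binding.

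Ascorbate uptake. Slc23a1 (ENSMUSG00000024354, chromosome 18, 35614604 to 35627244, minus strand), the sodium-coupled vitamin C transporter of absorptive epithelia, was at 56.4, 57.8, 53.5 and 109.6 CPM in WT, against 22.5, 34.2, 36.6 and 30.9 CPM in Rank-knockout. WT replicate 4 was far above the other WT libraries, but all 4 exceeded every Rank-knockout library. The means of 69.3 ± 26.9 and 31.1 ± 6.15 CPM gave a log2 fold change of -1.17 (SE 0.24, adjusted p = 0.0022). Without WT replicate 4 the gene was still called, at -0.90. Slc23a2, the second ascorbate transporter, which serves most other tissues, was at 56.1 ± 23.6 CPM in WT, against 46.5 ± 19.6 CPM in Rank-knockout and was not called (log2 fold change -0.22, 95% interval -1.03 to 0.59, adjusted p = 0.685). The difference between the 2 transporters was itself not separated from replicate spread: the log2 ratio of Slc23a1 to Slc23a2 changed by -0.86 (exact two-sided permutation p = 0.143, adjusted p = 0.2).

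Biotin and pantothenate uptake. Slc5a6 (ENSMUSG00000006641, chromosome 5, 31036036 to 31048924, minus strand) encodes the sodium-dependent multivitamin transporter. WT libraries agreed closely, at 31.9, 34.9, 35.9 and 39.0 CPM, and Rank-knockout libraries were at 14.5, 17.5, 24.1 and 14.6 CPM. The groups were apart, with means of 35.4 ± 2.89 and 17.7 ± 4.48 CPM and a log2 fold change of -1.03 (SE 0.20, adjusted p = 0.00173). Btd (ENSMUSG00000021900, chromosome 14, 31641028 to 31668579, plus strand), the enzyme that recycles biotin, was at 33.3, 25.9, 27.1 and 38.3 CPM in WT, against 17.5, 17.9, 19.6 and 25.4 CPM in Rank-knockout. The lowest WT value and the highest Rank-knockout value nearly met. Its log2 fold change was -0.61 (SE 0.20, adjusted p = 0.0316), the smallest of the called genes. Btd lost its call when WT replicate 1 (adjusted p = 0.0645) or 4 (0.0912), or Rank-knockout replicate 1 (0.094), 2 (0.0822) or 3 (0.0681), was left out, with library totals in place of TMM (-0.42, adjusted p = 0.127) or totals without the 50 most abundant genes (-0.49, adjusted p = 0.081), and with no filter on low counts (-0.57, adjusted p = 0.059). The log2 ratio of Slc5a6 to Btd changed by -0.39 (exact two-sided permutation p = 0.171, adjusted p = 0.2).

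Riboflavin uptake. Slc52a3 (ENSMUSG00000027463, chromosome 2, 151996511 to 152009258, plus strand), the apical riboflavin transporter, was at 38.7, 31.7, 77.2 and 42.3 CPM in WT, against 41.7, 30.9, 28.1 and 37.7 CPM in Rank-knockout. Apart from WT replicate 3, the libraries of the 2 genotypes covered nearly the same range. The log2 fold change was -0.42 with a 95% interval of -0.94 to 0.10 (adjusted p = 0.213). It was -0.11 without WT replicate 3 (adjusted p = 0.737) and -0.60 without WT replicate 2 (adjusted p = 0.055). That interval includes no change as well as a fall of the size seen for Btd. Slc52a2, a riboflavin transporter of many tissues, was at 123 ± 15.2 CPM in WT, against 70.2 ± 10.1 CPM in Rank-knockout and was called lower (log2 fold change -0.81, SE 0.15, adjusted p = 0.00144). A difference between the 2 was not shown, since the log2 ratio of Slc52a3 to Slc52a2 changed by 0.42 with overlapping groups (exact two-sided permutation p = 0.257, adjusted p = 0.257).

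Thiamine uptake. The 2 thiamine transporters were the least abundant of the 10 genes. Slc19a2 (ENSMUSG00000040918, chromosome 1, 164249046 to 164265385, plus strand) had 8, 14, 2 and 9 counts in WT, against 24, 13, 7 and 18 counts in Rank-knockout, or 4.06 ± 2.09 and 4.43 ± 0.884 CPM. Its log2 fold change of 0.19 (95% interval -0.64 to 1.01, adjusted p = 0.756) turned to -0.07 without WT replicate 3, the library with 2 counts. Slc19a3 (ENSMUSG00000038496, chromosome 1, 83012523 to 83038448, minus strand) had 6, 3, 4 and 7 counts in WT, against 5, 4, 3 and 2 counts in Rank-knockout, or 3.04 ± 1.72 and 1.10 ± 0.425 CPM. It did not pass the count filter, and a fit of unfiltered genes put it at -1.28 on the log2 scale (adjusted p = 0.205). Both rest on at most 24 counts in any library, and the interval of Slc19a2 spans changes in either direction.

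Ordered by WT level, the 10 genes ran from Tcn2 at 628 CPM through Amn (307), Slc46a1 (288), Cubn (136), Slc23a1 (69.3), Slc52a3 (47.5), Slc5a6 (35.4) and Btd (31.1) to Slc19a2 (4.06) and Slc19a3 (3.04). Reads of this method come from the 3′ end of transcripts, so levels were not divided by length, and copies made by PCR are counted as reads. Ranges of neighbours overlapped in WT except between Tcn2 and Amn, Slc46a1 and Cubn, and Btd and Slc19a2. In Rank-knockout the order of the means was kept, apart from 2 exchanges of neighbours: Slc52a3, which was not called, moved above Slc23a1, and Btd moved above Slc5a6. The Rank-knockout ranges overlapped in each exchange. They were 28.1 to 41.7 CPM for Slc52a3 and 22.5 to 36.6 CPM for Slc23a1. For Btd and Slc5a6 they were 17.5 to 25.4 and 14.5 to 24.1 CPM.

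**Figure D2:**
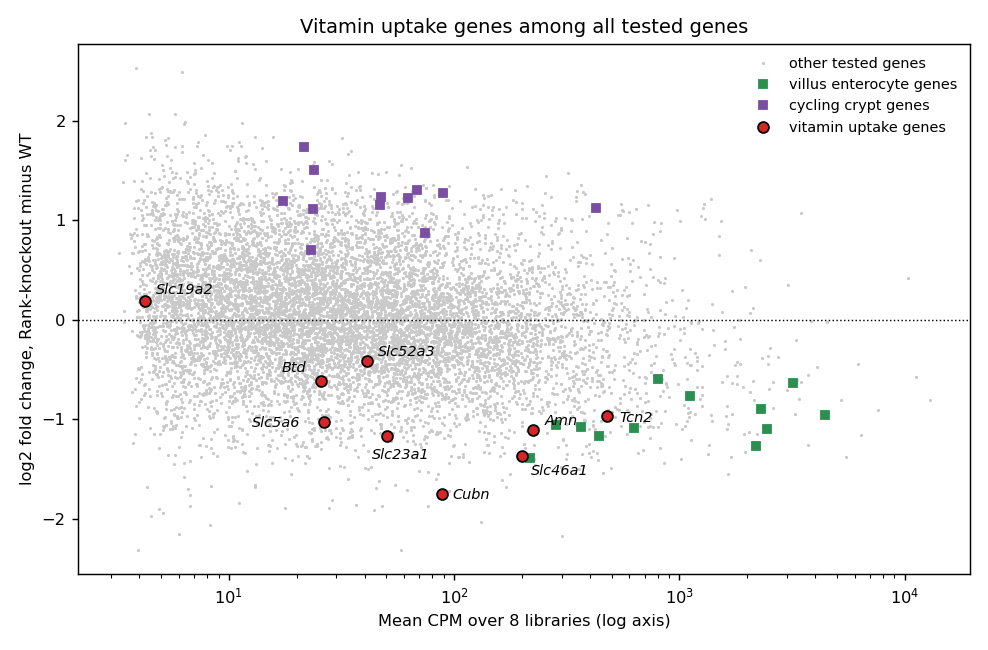
Log2 fold change against mean CPM (log axis) for the 9855 tested genes, with the 9 tested vitamin uptake genes in red, 12 villus enterocyte genes in green and 12 cycling crypt genes in purple. Cubn lies lowest of the red points at -1.75, and most red points lie at the height of the green ones.

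Genes that act on the same vitamins after or beside uptake were described from a list of 37 companions, of which 23 were tested, 7 were called lower, 3 higher and 13 not called. Their median log2 fold change was -0.22. Of all 9855 tested genes, 14.6% were called lower and 15.8% higher. For folate, Fpgs, which adds the glutamate tail that keeps folate in the cell, rose from 6.11 ± 1.93 to 13.8 ± 3.01 CPM (log2 fold change 1.23, SE 0.29, adjusted p = 0.00548). Slc25a32, a mitochondrial carrier linked to folate, rose from 60.8 ± 13.2 to 90.8 ± 8.38 CPM (0.56, SE 0.17, adjusted p = 0.019). Folh1, a folate hydrolase, had 0 counts in every library. Of the 5 tested folate genes, Slc46a1 and Slc19a1 were thus called lower, the call of Slc19a1 being lost in 11 of 16 alternatives, Fpgs and Slc25a32 were called higher, and Abcc3, an efflux pump, was not called (-0.55, adjusted p = 0.0761).

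Among the cobalamin companions Lmbrd1, which takes part in lysosomal export of cobalamin, was the only one of 4 tested to be called, at -0.63 (SE 0.17, adjusted p = 0.0104). For riboflavin, Rfk, the kinase that makes FMN, was at 1448, 1466, 2541 and 2049 CPM in WT, against 1093, 878, 897 and 842 CPM in Rank-knockout (-1.02, SE 0.19, adjusted p = 0.0011). Vnn1, a pantetheinase that releases pantothenate, fell most of the companions, from 45.6 ± 16.5 to 16.4 ± 3.60 CPM (-1.47, SE 0.25, adjusted p = 0.000828). The pantothenate kinases, which begin coenzyme A synthesis, went different ways. Pank3, the most abundant at 880.2 ± 61.8 CPM in WT, fell by 0.53 on the log2 scale (adjusted p = 0.0143), and Pank1, at 19.8 ± 3.78 CPM in WT, rose by 0.78 (adjusted p = 0.0138). Naprt, which starts the use of nicotinate for NAD synthesis, was lower at -0.72 (SE 0.17, adjusted p = 0.00599).

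Several of these calls depended on single libraries. Slc25a32 was not called once WT replicate 3 (adjusted p = 0.0639) or 4 (0.0901), or Rank-knockout replicate 3 (0.0624), was removed. Pank1 was not called once WT replicate 4 (adjusted p = 0.0559) or Rank-knockout replicate 3 (0.0526) was removed, nor Pank3 once Rank-knockout replicate 2 was (0.0528). Abcc3, Abcd4 and Nampt became calls once a single library was removed, which was WT replicate 2 for Abcc3 (adjusted p = 0.0471), Rank-knockout replicate 2 for Abcd4 (0.0445) and Rank-knockout replicate 4 for Nampt (0.0299).

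**Figure D3:**
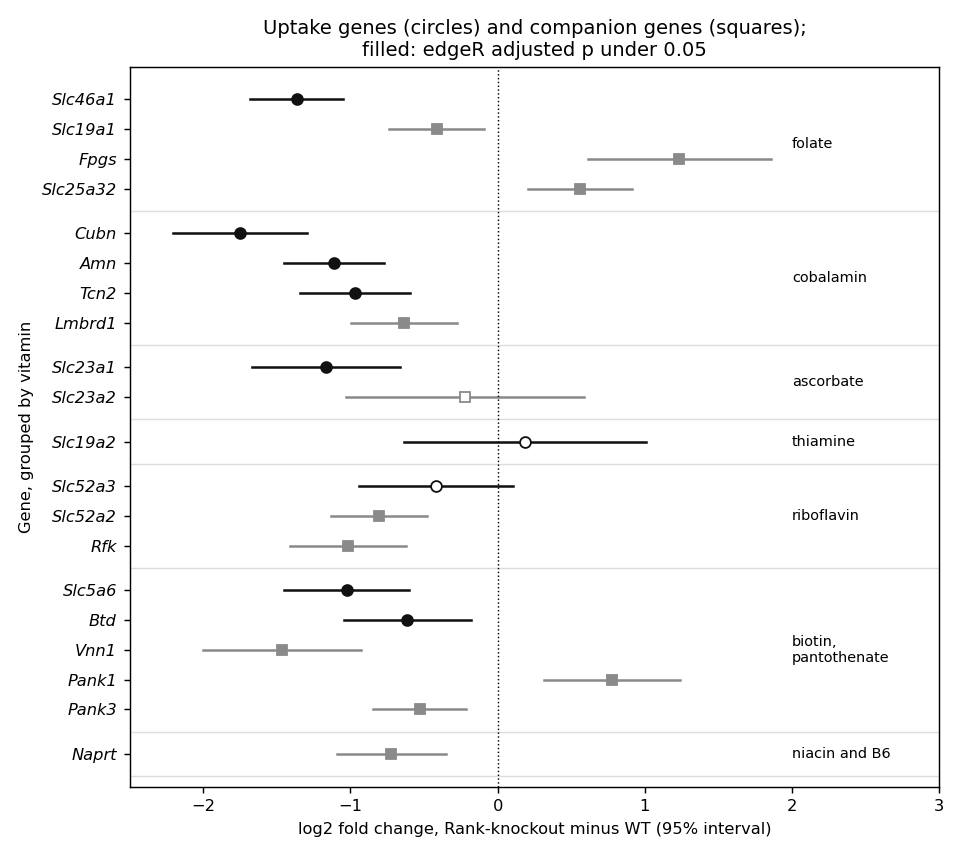
Log2 fold change (Rank-knockout minus WT) with its 95% interval for the 9 tested uptake genes (circles) and the 11 companion genes that were called or are partners in a pair (squares), grouped by vitamin, with filled symbols for an adjusted p under 0.05. Filled circles all lie left of 0, from -1.75 to -0.61, while filled squares lie on both sides, from -1.47 for Vnn1 to 1.23 for Fpgs.

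Genes of absorptive villus cells were measured beside the uptake genes. Libraries of mixed epithelial cells do not show which cells express each uptake gene. All 12 villus enterocyte genes had fold changes below 0 and 11 were called lower, with a median log2 fold change of -1.06, and their summed level was 18767 to 28026 CPM in WT, against 10091 to 15647 CPM in Rank-knockout. The most abundant were Slc5a1, the sodium-glucose cotransporter (-0.96, adjusted p = 0.00206), Fabp1 (-0.64, adjusted p = 0.0736) and Cdhr5 (-1.09, adjusted p = 0.000194). All 12 cycling crypt genes were called higher, Top2a, Cdk1 and Mcm7 being the most abundant (1.12, 1.27 and 0.87), and their summed level was 423 to 674 CPM in WT libraries and 931 to 1632 CPM in Rank-knockout libraries. Markers of position along the intestine were mixed: of 5 tested proximal genes Lct and Adh6a were called lower (-1.35 and -0.87) and Onecut2, Slc40a1 and Gata4 were not called. Of the 2 tested ileal genes, Slc51b was called lower and Slc51a was not, while Fabp6, the ileal bile acid binding protein, did not pass the count filter. It stood at 1.24 ± 0.755 CPM in WT, against 5.64 ± 2.85 CPM in Rank-knockout (SD, n = 4 each), with groups that did not overlap, and the fit of unfiltered genes put it higher by 2.002 on the log2 scale (adjusted p = 0.000695). Slc10a2, the other untested one of the 4 ileal genes, was at 0.674 ± 0.555 CPM in WT, against 0.610 ± 1.08 CPM in Rank-knockout. The same fit put Slc10a2 at -0.08 (adjusted p = 0.97) on few counts. Of 7 goblet and Paneth genes 3 were called lower and 2 higher. The goblet cell genes Muc2, Fcgbp and Clca1 were lower (-0.58, -0.64 and -0.67), and Tff3 was not called (-0.30, adjusted p = 0.129). Mmp7, a Paneth cell protease, and Itln1 were higher (1.34 and 0.99, adjusted p = 0.0429 and 0.0384), and Lyz1, Paneth cell lysozyme, was at 1.21 without being called (adjusted p = 0.0838). The part of these markers in the fall of the uptake genes was not tested.

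Levels of the uptake genes were also described relative to other genes of the same library, and the outcome depended on the reference list, with 0 of 9 past the threshold against the villus enterocyte genes and 6 of 9 against pan-epithelial genes. The first scale was the log2 level of an uptake gene minus the mean log2 CPM of the 12 villus enterocyte genes. On it 0 of the 9 tested genes differed between genotypes after adjustment over the 9 (exact two-sided test, permuting genotype in 70 ways, smallest possible p = 0.0286). At least 6 of the 9 would have to reach that smallest p together for any to pass, so a departure of a few genes could not be called by this test. At an unadjusted p under 0.05, 1 gene differed, Slc19a2. The groups overlapped for every gene but that one. Cubn differed most in the negative direction, by -0.69 (exact p = 0.0857, adjusted p = 0.257), followed by Slc46a1 at -0.37 (exact p = 0.286). Without WT replicate 2 or Rank-knockout replicate 4 the value of Slc46a1 was -0.18 or -0.19, while that of Cubn ran from -0.92 to -0.56 when any library was left out. Amn, Slc23a1, Slc5a6 and Tcn2 differed by -0.11, -0.10, -0.01 and 0.01, and each of these 4 took both signs as single libraries were left out. The differences of Btd, Slc52a3 and Slc19a2 were 0.38, 0.61 and 1.22, with exact p of 0.0857, 0.114 and 0.0286 and an adjusted p of 0.257 for each. Slc19a2 rests on few counts, and its difference was 0.80 without WT replicate 3. With the median of the villus genes in place of their mean, Cubn differed by -0.92 with groups apart (exact two-sided p = 0.0286, adjusted p = 0.129). Slc46a1, Amn, Slc23a1, Slc5a6 and Tcn2 then differed by -0.60, -0.34, -0.33, -0.24 and -0.22, and 0 of the 9 passed after adjustment.

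Against 8 pan-epithelial genes, whose mean changed by -0.25 on the log2 scale, 6 of the 9 were lower with groups that did not overlap. Cubn differed by -1.43, Slc46a1 by -1.11, Amn by -0.85, Slc23a1 by -0.85, Slc5a6 by -0.75 and Tcn2 by -0.73 (exact two-sided permutation p = 0.0286 for each, adjusted p = 0.0429). Btd, Slc52a3 and Slc19a2 differed by -0.36, -0.13 and 0.47 (exact p = 0.114, 0.657 and 0.429) and did not pass. The pan-epithelial genes did not move together: 4 were called lower, among them Ezr (-1.06) and Vil1 (-0.80), and 2 higher, Krt19 (0.65) and Krt18 (0.41), so their mean balances opposite changes.

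**Figure D4:**
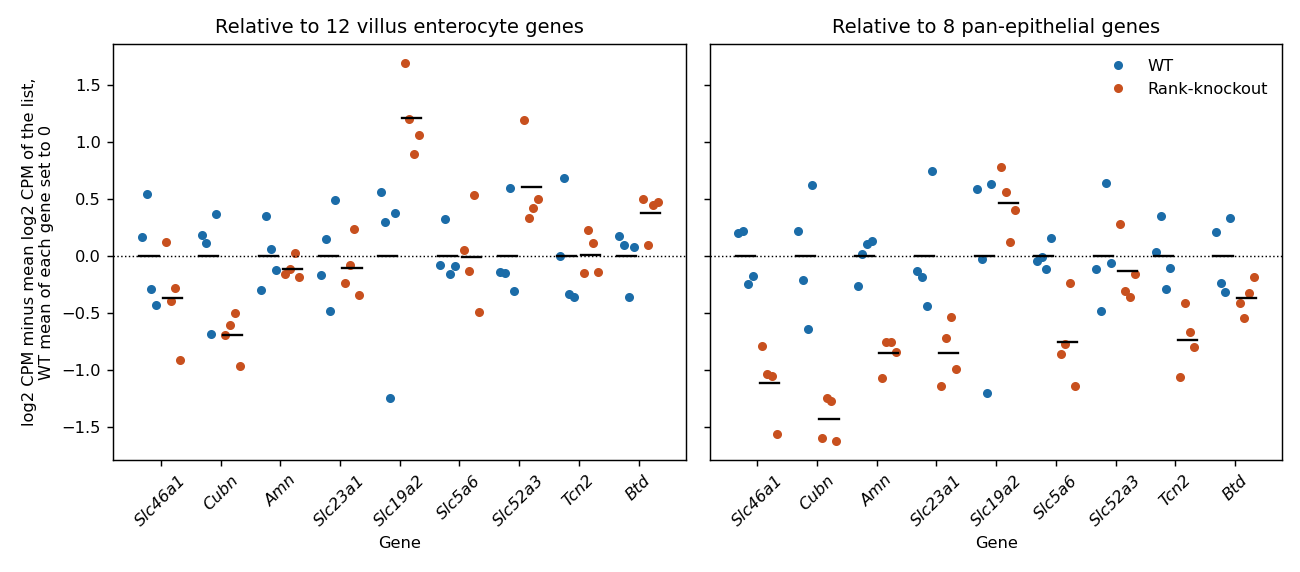
Level of the 9 tested uptake genes in each library relative to the mean log2 CPM of 12 villus enterocyte genes (left) or 8 pan-epithelial genes (right), with the WT mean of each gene set to 0 and bars at the group means. On the left the groups overlap for all genes but Slc19a2, and on the right they are apart for Slc46a1, Cubn, Amn, Slc23a1, Slc5a6 and Tcn2.

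Of the 7 pairs compared, 0 passed after adjustment and 1 had an unadjusted p under 0.05. At least 5 of the 7 would have to reach the smallest possible p together for any to pass, so a single separated pair could not. In that pair the log2 ratio of Slc46a1 to Slc19a1 was 1.69, 1.89, 1.79 and 1.77 in WT and 1.05, 0.77, 0.73 and 0.75 in Rank-knockout. The groups did not overlap, and the difference of -0.96 had the smallest p that the design allows (exact two-sided permutation p = 0.0286, adjusted p = 0.2). It stayed between -1.03 and -0.92 when any library was left out. Other pairs moved more: the difference for Slc5a6 to Btd was -0.20 without Rank-knockout replicate 4, that for Cubn to Tcn2 was -0.46 without WT replicate 4, and that for Slc52a3 to Slc52a2 was 0.24 without Rank-knockout replicate 1 and 0.69 without WT replicate 3. The remaining pair, Slc19a3 to Slc19a2, changed by -1.14 (exact p = 0.0857, adjusted p = 0.2) on few counts.

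**Figure D5:**
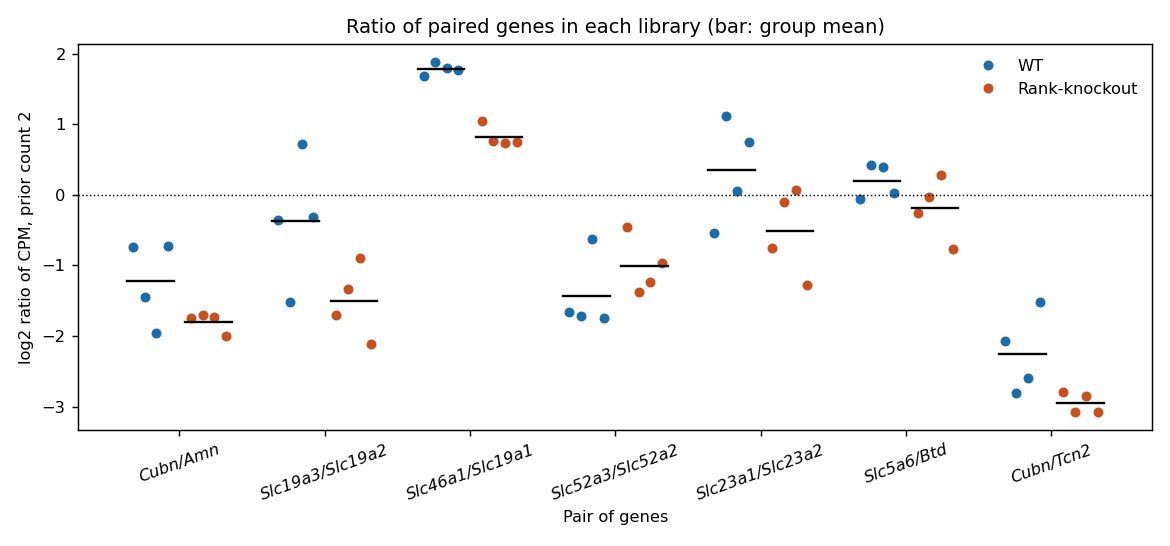
Log2 ratio of CPM, with a prior count of 2, for 7 pairs of vitamin genes in each WT (blue) and Rank-knockout (orange) library, with bars at the group means. Only the ratio of Slc46a1 to Slc19a1 separates the groups, at 1.69 to 1.89 in WT and 0.73 to 1.05 in Rank-knockout.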

How the data were processed

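Libraries of 3′ ends of polyadenylated RNA were sequenced from a single end. The methods of the study state that the authors trimmed reads with BBDuk, removed reads on abundant sequences with bowtie2, aligned the rest to GRCm38 (mm10) with STAR and counted sense reads per gene with featureCounts. What was deposited are unnormalized counts of reads for each gene. Unique molecular identifiers are not mentioned, so copies made by PCR count as reads, and limits from counts cover counting error only. Reads that match several genes may be lost or split. No gene on the same strand overlaps any of the 10 in GENCODE M21, which gave symbols and positions for 54495 of 54532 identifiers.

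Counts were tested with edgeR 4.0.16 (filterByExpr, TMM, robust quasi-likelihood F-test, genotype as the only term) in R 4.3.3, with Benjamini-Hochberg adjustment over 9855 genes and a threshold of 0.05. SE came from the F statistic and intervals are at 95%. Ratios used log2 CPM (prior count 2) and exact two-sided permutation (scipy 1.17.1), adjusted over pairs or genes. Total counts were 1530781 to 4335653. Replicates are separate mice by their titles. The fit was tested on simulated data. The members, lists and tests were chosen with earlier results of these data known. Named were Tnfrsf11a, the 10 genes, their pair partners, companions past the threshold or at 0 counts, and up to 3 markers of a list with the highest CPM. Other genes were named after their values were seen, where a count of at most 5 included them. Some genes of the lists are not reported here. Alternatives were library totals, RLE factors, totals that leave out the 50 most abundant genes, a filter at a mean CPM of 5 or none, limma-voom (limma 3.58.1), DESeq2 1.42.0, a replicate block, each library left out, a prior count of 0.5, the median of the villus list and the pan-epithelial list.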

Additional observations from a re-analysis of the deposited data

Results flagged for a closer look

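In 9 cases 1 library of a group of 4 stood apart from the other 3 by more than Dixon's 95% limit, among 54 sets of 4 values looked at. Chance alone marks about 1 set in 20, or 2.7 here, and many of the sets share libraries and genes. The total of WT replicate 2, 4335653 counts, was far above the 1530781 to 1616024 of the other WT libraries, so this library had the least counting error of its group. Slc23a1 was at 109.6 CPM in WT replicate 4, against 53.5 to 57.8 CPM in the other WT libraries. Tcn2 was at 789 CPM in WT replicate 2, against 558 to 597 CPM. The log2 ratio of Cubn to Amn was -2.00 in Rank-knockout replicate 4, against -1.75 to -1.71. That of Slc46a1 to Slc19a1 was 1.05 in Rank-knockout replicate 1, against 0.73 to 0.77. That of Slc52a3 to Slc52a2 was -0.62 in WT replicate 3, against -1.74 to -1.66. Relative to the villus enterocyte genes, Slc19a2 was at -9.46 in WT replicate 3 (2 counts), against -7.92 to -7.66, Slc5a6 at -4.85 in WT replicate 2, against -5.33 to -5.25, and Btd at -5.27 in Rank-knockout replicate 2, against -4.92 to -4.87, all on the log2 scale. With each of these libraries left out in turn, Slc23a1, Tcn2, Cubn, Amn, Slc46a1 and Slc5a6 were still called lower, while Btd was not called when WT replicate 4 or Rank-knockout replicate 1 or 2 was the library removed.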

How the results depend on the processing

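Slc46a1, Cubn, Amn, Slc23a1, Slc5a6 and Tcn2 were called lower under all 16 alternatives of the fit, and Btd lost its call in 8, so that 6 or 7 genes were called each time, and Slc52a3 and Slc19a2 were never called. Library totals moved the median of all genes by 0.199 on the log2 scale, and totals that leave out the 50 most abundant genes moved it by 0.13. Of all calls, 74.9% and 68.0% were then in the higher direction, against 52.0% with TMM. Library totals gave 2566 higher and 859 lower genes, in place of 1555 and 1438, and 4 companions in place of 7 were lower, Slc19a1, Lmbrd1 and Pank3 being lost (adjusted p = 0.288, 0.0528 and 0.0816). Leaving out 1 library gave 1020 (without WT replicate 4) to 1718 higher genes and 1097 to 1564 lower genes, and 1 (without WT replicate 4 or Rank-knockout replicate 3) to 4 higher companions. With the pan-epithelial list as reference 6 genes in place of 0 were past the threshold, and Tcn2 turned from 0.01 to -0.73.

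Same-numbered libraries did not deviate together (correlations 0.05, 0.15, -0.14 and 0.32), so the numbers were not taken to pair samples. A replicate block gave 1708 higher and 1602 lower genes, 7 lower uptake genes and 7 lower and 4 higher companions. For the ratios, sign flips of 4 pairs cannot go below 0.125, nor the exact test without 1 library below 0.0571, so neither can pass. Slc19a2 and Slc19a3 had at most 24 counts in any library and are the least precisely measured. With the median of the villus genes as reference, 0 of the 9 passed, as with their mean.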
